A study of Mus musculus with 6 samples.

Results

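The miR-29 family in mouse splenocytes is described here through 3 probes of a miRNA panel, mmu-miR-29a, mmu-miR-29b and mmu-miR-29c, which were taken by name from 566 mouse miRNA probes. The panel held 0 probes for the opposite (star) arms of the family's precursors. Splenocytes came from female NZB/WF1 mice, the F1 hybrid used as a model of human lupus because it becomes autoimmune without any treatment. At 6 to 7 weeks of age the mice were implanted with the natural estrogen 17β-estradiol (E2), with the contraceptive estrogen 17α-ethinyl estradiol (EE), which carries an added ethinyl group, or with an empty implant (placebo), and the cells were collected after 9 weeks. Each group held 2 samples, 6 in all. The labels are silent on whether each sample was its own mouse, so p-values cover only the spread between samples, which may be technical. The sources used here give no implant doses.

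MicroRNAs lower protein output by pairing, mainly through the seed at bases 2 to 8 of their 5′ end, with sites in target mRNAs. The miR-29 family is known for targeting collagens and other extracellular matrix genes, the de novo DNA methyltransferases Dnmt3a and Dnmt3b, and the anti-apoptotic gene Mcl1. In mouse T cells it restrains interferon-γ production through Ifng itself and through the transcription factors Tbx21 and Eomes, and it is expressed in resting T and B lymphocytes, which make up most splenocytes.

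The mature sequences from RefSeq (mouse build GRCm38.p6) are shown first because the 3 members differ in few bases and each has a probe of its own. All 3 members matched an entry, under the names with the suffix -3p. Capitals mark the seed.
miR-29a: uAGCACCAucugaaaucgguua
miR-29b: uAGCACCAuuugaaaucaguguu
miR-29c: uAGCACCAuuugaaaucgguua
The seed AGCACCA was the same in all 3, and no other of the 1679 mature mouse miRNA names in the table carried it at bases 2 to 8. With positions counted from 1 at the 5′ end, miR-29a and miR-29c were identical at 21 of 22 positions and differed by C10U. miR-29b is 23 bases long and differed from miR-29c by G18A, U21G and A22U, besides its extra last base. From miR-29a it differed by the same changes and C10U. The sources used here give no probe sequences, so how far the probes for miR-29a and miR-29c share signal was not tested.

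miR-29b alone of the family ends in the hexamer AGUGUU, which in human cells was described as directing miR-29b to the nucleus. The hexamer is in capitals in the sequence of miR-29b.
miR-29b: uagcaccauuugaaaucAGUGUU
Among all mature mouse miRNA names in the table, 12 (0.715%) held these letters anywhere in the sequence.

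The family comes from 4 precursor genes in 2 pairs. Mir29a (chr6:31062660-31062747) and Mir29b-1 (chr6:31063023-31063093) lie on the minus strand, 275 bases apart, and Mir29b-2 (chr1:195037040-195037120) and Mir29c (chr1:195037547-195037634) lie on the plus strand, 426 bases apart. In the RefSeq gene table the chromosome 1 pair lies within the lncRNA gene A330023F24Rik, between the protein-coding genes Cd34 and Cd46. The chromosome 6 pair overlapped no other gene and lies between Klf14 and Mkln1. The hairpins are shown to make clear that miR-29b has 2 sources. Capitals mark the mature miRNA that the panel reads.
Mir29a: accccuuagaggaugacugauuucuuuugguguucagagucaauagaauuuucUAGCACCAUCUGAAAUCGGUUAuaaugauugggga
Mir29b-1: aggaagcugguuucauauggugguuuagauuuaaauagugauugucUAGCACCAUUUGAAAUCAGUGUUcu
Mir29b-2: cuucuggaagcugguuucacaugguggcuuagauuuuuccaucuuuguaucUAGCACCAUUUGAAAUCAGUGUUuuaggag
Mir29c: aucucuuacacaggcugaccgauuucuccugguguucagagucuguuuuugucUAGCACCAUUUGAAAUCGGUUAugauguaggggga
The mature miR-29b in capitals is the same in both of its hairpins, so the miR-29b probe cannot tell the chromosome 6 transcript from that of chromosome 1.

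Values are normalized counts of colour-coded barcodes, each read from a single molecule without amplification in the nCounter assay. Summed over all probes they ranged from 167152 to 205209 per sample. These sums follow the authors' normalization, so the raw depth is unknown. A detection floor of 53.3 normalized counts was set 2 SD above the average of the 8 negative controls over the samples, and 95 mouse miRNAs, all 3 miR-29 members among them, had a mean above it.

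The miR-29a probe gave one of the stronger signals of the panel, which is not a measure of abundance against other miRNAs, since probes differ in efficiency. Its level was 3792 and 4679 normalized counts with placebo, 3583 and 3188 with E2 and 3106 and 3580 with EE. All 4 estrogen samples lay below both placebo samples, and the E2 and EE samples overlapped each other. Its probe ranked 9 among the 566 mouse probes in every sample but placebo sample 2, where it ranked 8.

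miR-29b was at 1095 and 1185 normalized counts with placebo, 1014 and 845 with E2 and 853 and 1155 with EE. Both E2 samples lay below both placebo samples, while EE sample 2 lay between the placebo samples. The EE samples were 0.44 apart on the log2 scale, against a median of 0.16 between these samples over all tested miRNAs. Its rank ran from 20 to 29.

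miR-29c was at 477 and 553 normalized counts with placebo, 475 and 420 with E2 and 521 and 568 with EE. The EE samples overlapped the placebo samples and lay above both E2 samples, whereas the higher E2 sample and the lower placebo sample were nearly level. Its rank ran from 31 to 35. In no sample did any member come near the negative controls: the lowest ratio of a member to the highest negative control probe of its sample was 8.22, for miR-29c in placebo sample 1.

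**Figure D1:**
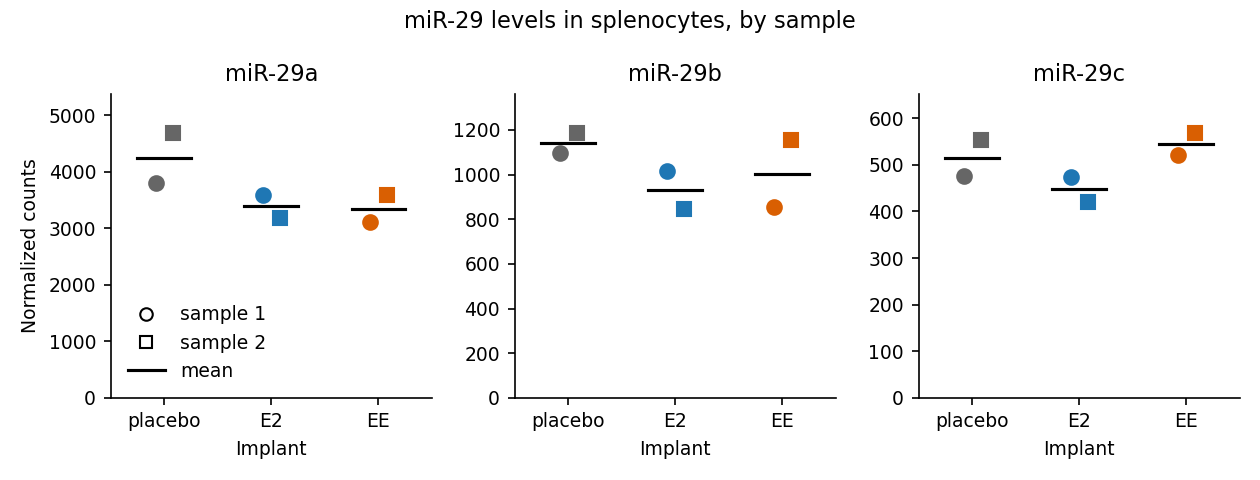
Normalized counts (y axes, from 0) of miR-29a, miR-29b and miR-29c in each sample by implant, with circles for sample 1, squares for sample 2 and lines at the group mean. For miR-29a all 4 estrogen samples, at 3106 to 3583, lie below the placebo samples, at 3792 and 4679, whereas for miR-29b and miR-29c the EE samples overlap the placebo samples.

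Whether the natural hormone changed the family was asked by setting E2 against placebo. All 3 members had lower group means with E2 and none passed the test. miR-29a was at 3386 ± 279 normalized counts with E2 against 4236 ± 627 with placebo, miR-29b at 929.5 ± 120 against 1140 ± 63.6 and miR-29c at 447.5 ± 38.9 against 515 ± 53.7 (SD, n = 2 each). In limma's moderated test on log2(value + 1) over 95 miRNAs, the log2 fold change of miR-29a was -0.32 ± 0.15 (SE), a level 1.25-fold lower, with an adjusted p of 0.221 and a 95% interval from -0.66 to 0.02. That of miR-29b was -0.30 ± 0.19 (adjusted p 0.3, limma) and that of miR-29c was -0.20 ± 0.18 (adjusted p 0.417, limma). The sizes depended on single samples, with no change of sign and no call: miR-29a ran from -0.47 without placebo sample 1 to -0.17 without placebo sample 2, and miR-29c from -0.31 to -0.09 without the same samples. miR-29b ran from -0.43 without E2 sample 1 to -0.17 without E2 sample 2. Past the adjusted threshold of 0.05 were 0 of 3 members and 10.5% of all tested miRNAs (4.21% higher, 6.32% lower). At an unadjusted p under 0.05 the shares were 0 of 3 and 21.1%. Both E2 samples lay below both placebo samples for all 3 members, as they did for 45.3% of tested miRNAs. The members had a median log2 fold change of -0.30 and all tested miRNAs one of -0.20, the value of miR-29c, so that miR-29c stood at the middle of the distribution.

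For the synthetic estrogen the same question was asked against placebo. miR-29a again had the lowest group mean relative to placebo, miR-29b was intermediate and miR-29c was slightly above placebo, and none passed the test. miR-29a was at 3343 ± 335 normalized counts with EE, miR-29b at 1004 ± 214 and miR-29c at 544.5 ± 33.2 (SD, n = 2 each). In limma's test the log2 fold change of miR-29a was -0.34 ± 0.15 (SE), with an adjusted p of 0.139 and a 95% interval from -0.68 to 0.00. miR-29b had -0.20 ± 0.19 (adjusted p 0.473, limma) and miR-29c 0.08 ± 0.18 (adjusted p 0.712, limma), with 95% intervals from -0.62 to 0.23 and from -0.31 to 0.47. Past the adjusted threshold were 0 of 3 members and 26.3% of all tested miRNAs (10.5% higher, 15.8% lower). At an unadjusted p under 0.05 the shares were 0 of 3 and 36.8%. Only for miR-29a among the members did both EE samples lie below both placebo samples, as they did for 36.8% of tested miRNAs. The members' median log2 fold change was -0.20 and that of all tested miRNAs -0.11.

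Whether miR-29a passed depended on placebo sample 1. Without that sample, in a fit where the lone placebo sample is assumed to vary like the other groups, the log2 fold change with EE was -0.49 and passed (adjusted p 0.0395, limma). Without placebo sample 2 it was -0.19. The placebo samples of miR-29a were 0.30 apart on the log2 scale, nearly as far as the groups.

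With both estrogens pooled against placebo, miR-29a had a log2 fold change of -0.33 ± 0.13 (SE), an unadjusted p of 0.0332 and an adjusted p of 0.0956 in limma's test. Its level was lower in 4 of 4 estrogen samples than in either placebo sample, an arrangement that 25.3% of tested miRNAs showed. miR-29b (-0.25 ± 0.17, adjusted p 0.288, limma) and miR-29c (-0.06 ± 0.15, adjusted p 0.778, limma) overlapped placebo in at least 1 estrogen sample. Past the adjusted threshold were 0 of 3 members and 23.2% of all tested miRNAs, and at an unadjusted p under 0.05 1 of 3 and 37.9%. miR-29a passed without placebo sample 1 (adjusted p 0.0348), with samples rescaled by the positive assay controls (0.0455) and with a robust variance estimate (0.046), all in limma. It did not pass under the other settings tried. This comparison and the 2 before it share their placebo samples, so they do not bear on one another independently.

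**Figure D2:**
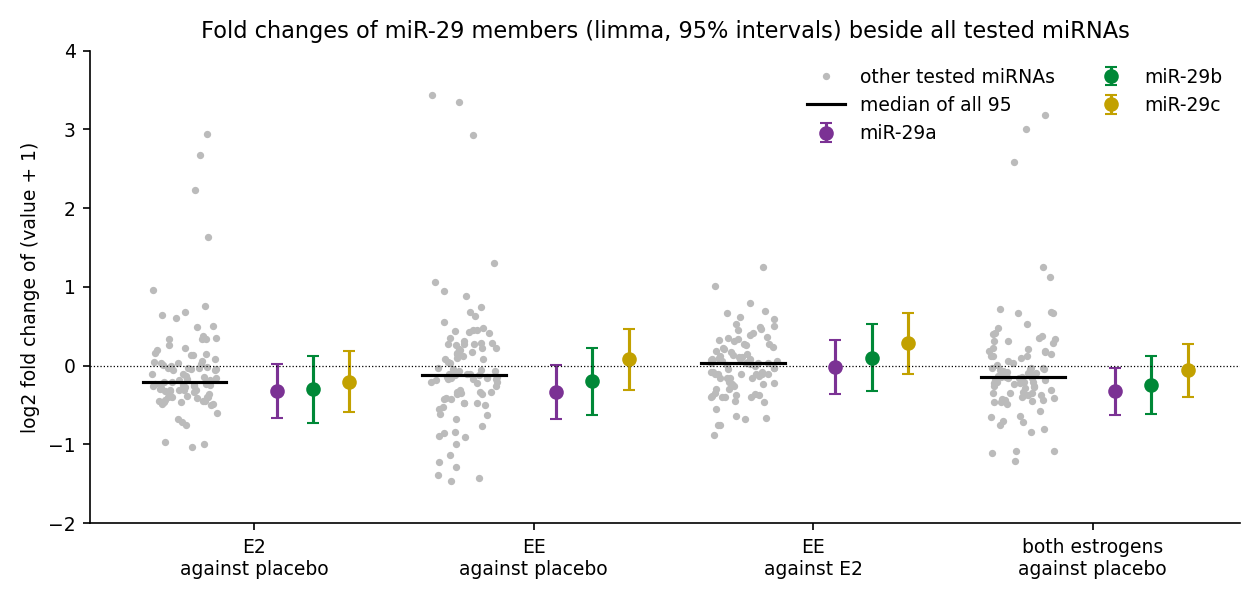
Log2 fold changes of (value + 1) in 4 comparisons, with miR-29a, miR-29b and miR-29c as coloured points with 95% intervals from limma, the other tested miRNAs as grey points and black lines at the median of all 95. The members lie within the bulk of the grey points, and of their intervals only that of miR-29a with both estrogens, from -0.62 to -0.03, leaves out 0.

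E2 and EE differ by the ethinyl group. Without known doses their values are set side by side, as 1 pair of compounds. miR-29a differed between EE and E2 by -0.02 ± 0.15 log2 units (SE, adjusted p 0.932, limma), with a 95% interval from -0.36 to 0.32, which leaves room for a difference of either sign. miR-29b differed by 0.10 ± 0.19 (adjusted p 0.846, limma) and miR-29c by 0.28 ± 0.18, a level 1.22-fold higher with EE (adjusted p 0.377, limma), with a 95% interval from -0.10 to 0.67. Past the adjusted threshold were 0 of 3 members and 7.37% of all tested miRNAs, and at an unadjusted p under 0.05 0 of 3 and 18.9%. Both EE samples of miR-29c lay above both E2 samples, as did those of 26.3% of tested miRNAs.

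In the main fit the members had the same order in both comparisons with placebo, which share the placebo samples, with miR-29a lowest and miR-29c highest. With E2, however, miR-29a and miR-29b were nearly level, at -0.32 and -0.30. There miR-29b was the lower without E2 sample 1 (-0.43 against -0.40). Quantile normalization also put miR-29b lowest with E2 (-0.57), with miR-29a at -0.09 and miR-29c at -0.22. How members stand to one another can be read without any scaling, since the ratio of 2 probes within a sample does not depend on how that sample was scaled. Probes differ in efficiency, so a ratio's own size has no meaning here and only its difference between samples is given. The log2 ratio of miR-29c to miR-29a was -2.99 and -3.08 with placebo, -2.91 and -2.92 with E2 and -2.57 and -2.65 with EE. The 3 groups did not overlap, with EE highest and placebo lowest. How often ratios between other tested miRNAs separate in this way was not computed, so the arrangement cannot be called particular to the family. The mean ratio was higher than with placebo by 0.12 log2 units with E2 and by 0.42 with EE.

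Over the 4 estrogen samples against the 2 placebo samples, the miR-29c to miR-29a ratio was higher by 0.27 log2 units, in 4 of 4 estrogen samples. An exact two-sided permutation test gave p = 0.133, or 0.3 after Benjamini-Hochberg adjustment over the 3 ratios. With 15 arrangements of the samples the smallest p this design allows is 0.0667, so no ratio could pass. The miR-29c to miR-29b ratio was -1.20 and -1.10 with placebo, -1.09 and -1.01 with E2 and -0.71 and -1.02 with EE, a difference of 0.19 between estrogens and placebo (exact permutation p = 0.2, adjusted 0.3). All 4 estrogen samples stood above both placebo samples in this ratio too, though placebo sample 2 and E2 sample 1 nearly met. Both ratios hold miR-29c, so they do not bear on one another independently. The miR-29b to miR-29a ratio differed by 0.08 (exact permutation p = 0.6, adjusted 0.6), with overlapping groups, and the sign turned without placebo sample 2, to -0.016.

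In terms of barcode counts, miR-29c made up 8.76% ± 0.19 of the family's summed counts with placebo, 9.40% ± 0.05 with E2 and 11.2% ± 0.65 with EE (SD, n = 2 each). miR-29a made up 71.8% ± 1.57, 71.1% ± 0.67 and 68.4% ± 1.29 in the same order. miR-29b held 19.4% ± 1.38, 19.5% ± 0.72 and 20.4% ± 1.94, which overlapped among all groups. These are shares of barcodes, not of molecules.

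**Figure D3:**
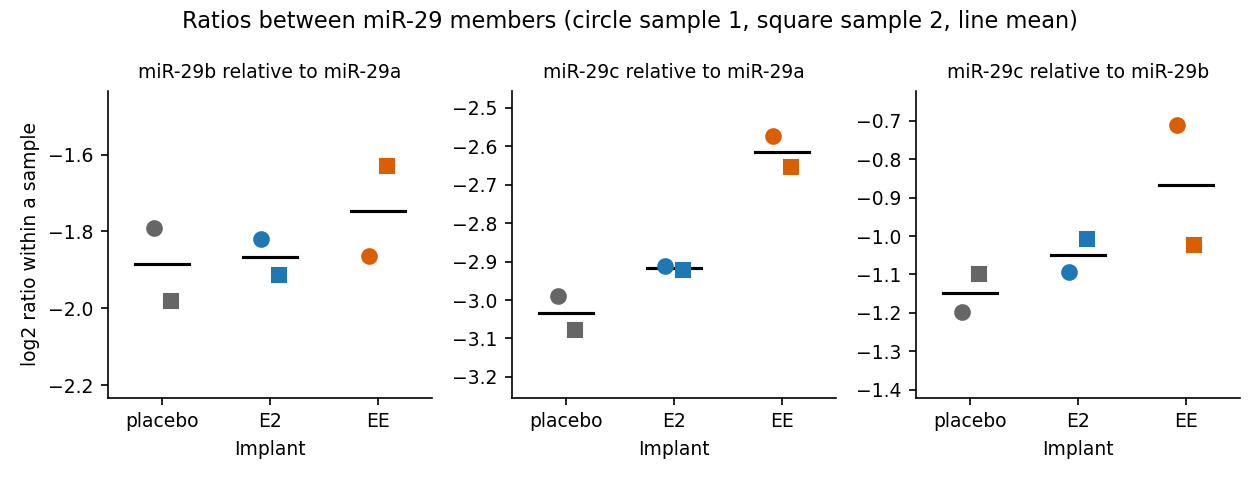
Log2 ratio within each sample (y axes of equal span) for the 3 pairs of miR-29 members by implant, with circles for sample 1, squares for sample 2 and lines at the group mean. The miR-29c to miR-29a ratio is lowest with placebo, at -2.99 and -3.08, intermediate with E2 and highest with EE, at -2.57 and -2.65, without overlap.

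The sign of some members against placebo depended on what the samples were scaled to, but miR-29a with EE stayed negative under all 18 alternatives (-0.54 to -0.09). Some of these could not alter that value, namely changes of the filter or variance model and leaving out an E2 sample. The deposited values hold the mean of the abundant miRNAs nearly level across samples. Rescaled by the positive ligation controls, the E2 changes were 0.0013 ± 0.28 (SE) for miR-29a, 0.020 ± 0.28 for miR-29b and 0.12 ± 0.27 for miR-29c. All were of the opposite sign and smaller than their SE. The ligation controls summed to 11149 and 12590 with E2, 14749 and 20480 with EE and 12786 and 16968 with placebo. With EE that scaling gave -0.54 for miR-29a (adjusted p 0.208, limma) and turned the sign of miR-29c (-0.12). Rescaling by the ligation controls moved the median of the 95 log2 fold changes by 0.32 with E2 and by -0.20 with EE. Relative to that median, miR-29a stood at -0.12 with E2 and -0.22 with EE, miR-29b at -0.10 and -0.09, and miR-29c at 0.00 and 0.20. These distances changed by less than 0.01 under every rescaling by a factor per sample. That was fixed in advance, since such a factor shifts all log2 values of a sample alike, apart from the pseudocount.

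**Figure D4:**
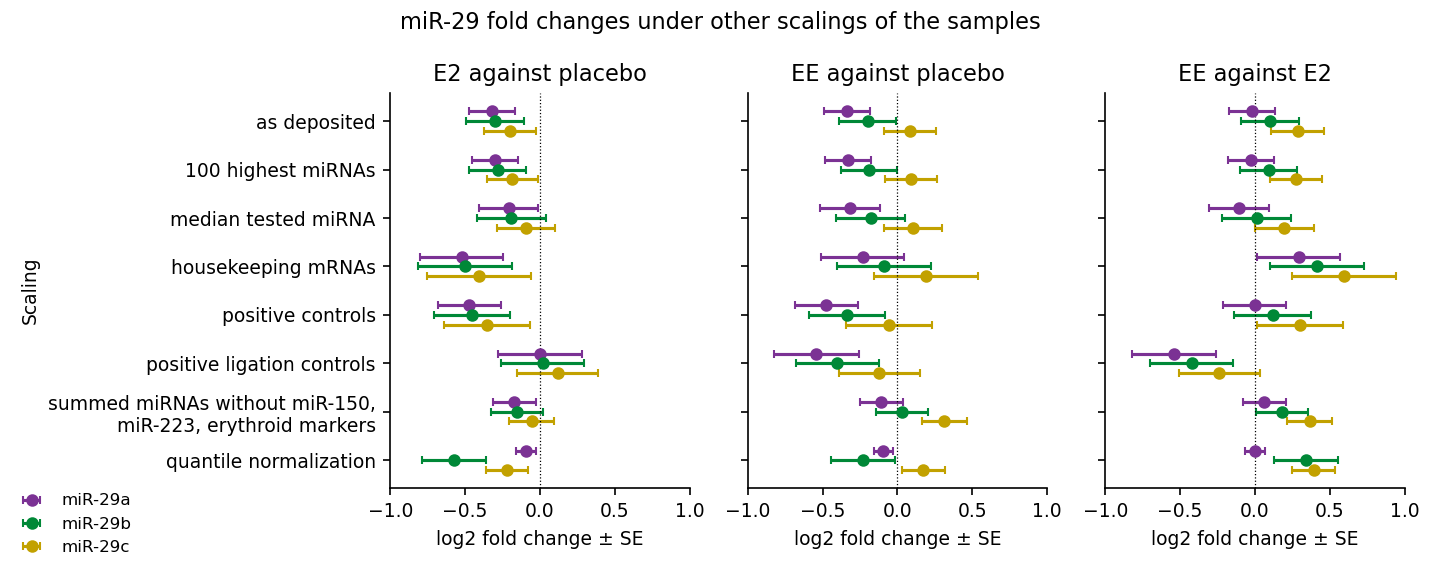
Log2 fold change ± SE (x axes) of miR-29a, miR-29b and miR-29c in 3 comparisons, as deposited and under 7 other scalings (y axis). Under the 6 rescalings by a factor per sample the members must shift by nearly the same amount, so their order there is fixed in advance. Quantile normalization moves them apart (-0.09 for miR-29a and -0.57 for miR-29b in E2 against placebo). miR-29c stays to the right of miR-29a in every row but that of E2 against placebo with quantile normalization, where they stand at -0.22 and -0.09.

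The summed family was at 5364 and 6417 normalized counts with placebo, 5072 and 4453 with E2 and 4480 and 5303 with EE, lower in all 4 estrogen samples. Of single tested miRNAs, 25.3% showed this arrangement. The sum mostly restates miR-29a, which made up 67.5% to 72.9% of it, while miR-29b and miR-29c overlapped placebo with EE. As a share of all mouse miRNA counts the summed family was 3.55% and 4.61% with placebo, 3.92% and 3.69% with E2 and 3.95% and 4.75% with EE, and the groups overlapped. Among those counts miR-150, a lymphocyte miRNA, filled 29.2% and 25.2% with placebo and 18.7% to 18.8% with E2 and 12.7% to 13.5% with EE. With miR-150 left out, the family's share was 5.01% and 6.17% with placebo, 4.82% and 4.54% with E2 and 4.56% and 5.44% with EE.

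Several miRNAs listed as markers of splenic cell types moved with the groups. For the counts that follow, 4.21% of all tested miRNAs were called higher and 6.32% lower with E2, and 10.5% and 15.8% with EE. All 4 miRNAs listed as lymphoid markers (miR-150, miR-181a, miR-342-3p and miR-142-3p) fell in limma's test with E2 and with EE. Their median log2 fold changes were -0.66 and -1.16. Their summed level was 48317 to 57810 normalized counts with placebo, 31165 to 33658 with E2 and 21482 to 21712 with EE. How far the listed miRNAs are particular to lymphoid cells was not tested. miR-142-5p, from the other arm of the miR-142-3p precursor, was not listed and went the other way. It was at 0.35 with E2 and 0.27 with EE and did not pass in either comparison (adjusted p 0.227 and 0.343, limma). All 3 erythroid markers (miR-144, miR-451 and miR-486) rose, from a summed level of 596 to 1393 with placebo to 4376 to 5230 with E2 and 7187 to 7933 with EE. Of 4 myeloid markers, miR-223 rose with both estrogens and miR-23a fell with EE, and the sums were 2205 to 2743 with placebo, 4371 to 4738 with E2 and 2993 to 3017 with EE. The higher sums came from miR-223, at 1308 and 911 with placebo, 3522 and 3244 with E2 and 1984 and 2042 with EE. The median log2 fold changes of this list were -0.14 with E2 and -0.09 with EE, so the list did not rise as a whole. Of 6 endothelial, stromal and smooth muscle markers 3 had a mean above the floor. The sums over all 6, with those under the floor included, were 284 to 298 with placebo, 248 to 250 with E2 and 429 to 475 with EE. In this list miR-125b-5p fell with E2, and miR-126-3p and miR-145 rose with EE. The E2 samples read only 30 and 45 for miR-125b-5p, less than the 53.3 of the floor. Their highest negative control probes read more, at 48 and 50, so how far miR-125b-5p fell cannot be told. Its mean of 66.5 over all samples let it pass the filter. The lymphoid calls with E2 ended (0 of 4) with samples rescaled by the median tested miRNA or the ligation controls and without the detection filter, with the median still negative (-0.55 and -0.34 under the rescalings), and 1 of 4 passed without E2 sample 2, whereas with EE at least 3 of 4 passed under all 18 alternatives. The erythroid calls held under all 18 alternatives with both estrogens, except that 1 of 3 passed with E2 and a robust trend. The call of miR-125b-5p with E2 was lost in 7 of 17 alternatives, that of miR-223 with EE in 3 of 18 and that of miR-23a in 8 of 18. No marker was at 0 in any sample. The part of these shifts in the miR-29 values was not tested. In such bulk samples fewer cells of a type and less RNA per cell cannot be told apart.

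Other miRNAs known to act on the processes that miR-29 targets were set beside it. Of 5 miRNAs linked to DNA methyltransferases, all tested, 0 passed with E2 in limma's test (2 at an unadjusted p under 0.05) and 2 rose with EE, miR-148a, which targets DNMT1 in human T cells (log2 fold change 0.69, adjusted p 0.0346, limma), and the endothelial miR-126-3p (1.07, adjusted p 0.00189, limma). Over all tested miRNAs 10.5% passed with E2 (21.1% at an unadjusted p under 0.05), and with EE 26.3% passed (10.5% higher, 15.8% lower). The call of miR-148a was lost in 10 of 18 alternatives and that of miR-126-3p in 1. The list's medians were 0.27 with E2 and 0.44 with EE, against -0.20 and -0.11 for all tested miRNAs. miR-21, also of this list, was at -0.41 with E2 and 0.09 with EE.

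Of 12 miRNAs linked to extracellular matrix and fibrosis 6 were above the floor. In limma's test 0 of the 6 passed with E2 (1 at an unadjusted p under 0.05), and with EE miR-145, a miRNA of smooth muscle, rose (0.63, adjusted p 0.0355, limma) while miR-30c, which targets connective tissue growth factor, fell (-0.62, adjusted p 0.0222, limma). These counts stand against 10.5% of all tested miRNAs passing with E2 (21.1% unadjusted) and 26.3% with EE. The calls were lost in 10 of 17 and 8 of 18 alternatives. The list's medians were -0.26 and -0.03. Of 10 miRNAs of T helper and effector T cells 9 were tested, and 1 of them, miR-181a, which tunes T cell receptor signalling, fell with E2 (-0.71, adjusted p 0.023, limma) and with EE (-1.47, adjusted p 8.21e-05, limma). The other 8 did not pass in either comparison, so that the list's count of 1 of 9 was near the 10.5% of all tested miRNAs with E2 and below the 26.3% with EE. The E2 call of miR-181a was lost in 4 of 18 alternatives. Medians of this list were -0.24 with E2 and -0.33 with EE.

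The miRNAs with the most similar profiles were found by the root mean square difference of log2(value + 1) over the 6 samples, each miRNA centred on its own mean. For miR-29a the nearest 3 outside the family were miR-140 (0.07), miR-30d (0.07) and let-7a (0.08), against a median of 0.27 over 94 others. For miR-29b they were miR-146a, let-7c and miR-30d, all at 0.11 to 0.12 (median 0.29). For miR-29c they were miR-30a (0.07), miR-21 (0.10) and miR-23b (0.11) (median 0.26).

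The members were not each other's nearest profiles throughout. miR-29a was the second nearest of all to miR-29b, at 0.11, but miR-29c ranked only 24 among the 94 nearest to miR-29a, at 0.18. None of the neighbours named for miR-29a passed the test in any comparison. With EE, miR-30a and miR-21 were at 0.10 and 0.09 log2 units relative to placebo, as miR-29c was at 0.08, and let-7a was at -0.35, beside -0.34 for miR-29a. The neighbours were picked for like values in these same samples, so their like fold changes and test outcomes follow from that choice. These profiles share their RNA samples and scaling, and the list is a description of 6 samples.

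**Figure D5:**
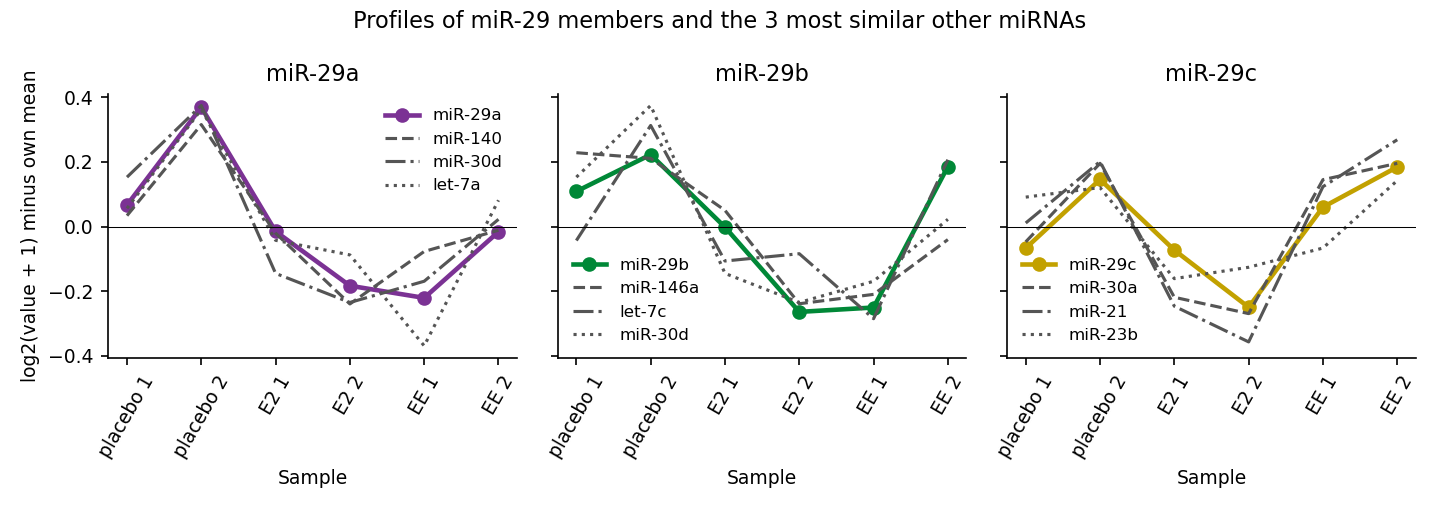
log2(value + 1) minus each miRNA's own mean (y axes) in the 6 samples (x axes) for each miR-29 member (coloured line) and its 3 most similar other miRNAs (grey lines), with lines joining separate samples only to show the profile. miR-29a and its neighbours peak in placebo sample 2, whereas miR-29c and miR-30a are lowest in E2 sample 2 and as high with EE as with placebo.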

How the data were processed

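Splenocyte RNA was run on an nCounter mouse miRNA panel, per the labels. Each deposited value is a whole-number score, and the sources used here do not say how the authors normalized or rounded it. Between the highest and lowest sample, the 100 most abundant miRNAs differed by 1.50% in geometric mean and the positive controls by 30.6% in sum, so the scores were taken as counts already rescaled per sample, for which no count model was fitted. Intervals for counting error were not computed, since the raw depth is unknown.

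All 6 columns were used, grouped by the treatment label. limma 3.58.1 in R 4.3.3 (lmFit, eBayes with trend) was fitted to log2(value + 1) of 95 mouse miRNAs in a single fit of 3 groups, with 10.5 total degrees of freedom, two-sided, adjusted by Benjamini-Hochberg over all 95. The pseudocount understates changes of low miRNAs. The fit was tested on simulated data. Alternatives changed the scaling, pseudocount, filter, variance model or left out a sample. The text names every member, the tested miRNAs of lists it cites that passed or are discussed, the marker lists, and for each member its 3 nearest profiles. Members and lists were chosen with earlier results of these data known. Sequences come from RefSeq tables of build GRCm38.p6.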

Additional observations from a re-analysis of the deposited data

How the results depend on the processing

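Of 216 refitted log2 fold changes (12 results under 18 alternatives), 193 kept their direction and their side of the threshold, 19 changed sign and 4, all of miR-29a, came past the threshold. Part of the kept directions was fixed in advance. A change of filter or variance model, or leaving out a sample of a group outside the comparison, cannot alter a fold change. With the ligation controls the sign changed for miR-29a (0.0013), miR-29b (0.020) and miR-29c (0.12) in E2 against placebo and for miR-29c in EE against placebo (-0.12), and in EE against E2 the values were -0.42 for miR-29b and -0.24 for miR-29c. With housekeeping mRNAs miR-29a in EE against E2 was 0.29, with positive controls miR-29c in EE against placebo was -0.055, and with the median tested miRNA miR-29c with both estrogens was 0.0050. Rescaled by summed miRNAs without miR-150, miR-223 and erythroid markers, a setting chosen after seeing the data, miR-29b was 0.030 in EE against placebo, miR-29a 0.062 in EE against E2 and miR-29c 0.13 with both estrogens. The cause of these changes was not tested.

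With each sample left out in turn, the log2 fold change ran from -0.42 to 0.020 for miR-29b and from -0.024 to 0.19 for miR-29c in EE against placebo, from -0.12 to 0.083 for miR-29a and from -0.12 to 0.32 for miR-29b in EE against E2, and from -0.17 to 0.047 for miR-29c with both estrogens. The miR-29b to miR-29a ratio ran from -0.016 to 0.17. Members called ran from 0 to 1 in EE against placebo and with both estrogens, where positive controls and a robust trend also gave 1.

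Counts over all tested miRNAs moved more. With E2 against placebo 10 became 4 with the median tested miRNA or ligation controls and 5 with no filter, and 6 to 12 with a sample left out, the lowest without E2 sample 1. With EE against placebo 25 became 15 with the median tested miRNA, 16 with housekeeping mRNAs or a mean of at least 100, 11 with ligation controls and 14 with no filter, and 15 to 23 with a sample left out, the lowest without EE sample 2. With EE against E2 7 became 0 with the median tested miRNA or no filter, 3 with ligation controls and 1 with a mean of at least 100, and 0 to 12 with a sample left out. With both estrogens 22 became 13, 14, 7 and 11 with the median tested miRNA, housekeeping mRNAs, ligation controls and no filter, and 14 to 21 with a sample left out, the lowest without either E2 sample.

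No paired analysis was possible because the labels give the groups no shared replicate numbers. With 2 samples per group the precision is set by their number.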
